A study of Mus musculus with 9 samples.

Results

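The genes described here break down heme and handle iron in neonatal rat ventricular cardiomyocytes (NRVMs). They comprise 10 of the 15146 genes listed in any of 3 tables, and they were chosen by symbol: *Hmox1*, *Blvra* and *Blvrb* (heme breakdown), *Fech* (heme synthesis), *Fth1* and *Ftl1* (iron storage), *Slc40a1* and *Tfrc* (iron transport), and *Hfe2* and *Ireb2* (iron sensing and regulation). All 10 genes are listed in every table. The cells came from the ventricles of Sprague Dawley rats 1 or 2 days of age and were cultured for 48 h and infected at a multiplicity of 50 with Adeno-LacZ, Adeno-Nrf1 or Adeno-Nrf2, and RNA was collected 48 h after infection. LacZ is a bacterial enzyme that served as the control, and each of the 3 groups has 3 samples. The transgenes, mouse Nrf1 and mouse Nrf2 among them, were driven by the CMV promoter of a vector that also carries a red fluorescent protein, so the LacZ samples share the virus and the promoter with the other groups and every infected cell type could express the transgene. The labels do not say whether samples of a group came from separate cultures or litters.

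Heme is a ring that holds an iron atom. Heme oxygenase opens the ring and releases the iron, carbon monoxide and biliverdin, and biliverdin reductase turns biliverdin into bilirubin. Ferritin, built of heavy and light chains, stores the iron that is set free, ferroportin exports it, and the transferrin receptor brings iron in. Iron regulatory proteins bind iron-responsive elements in the messenger RNAs of ferritin and of the transferrin receptor, so these genes are also regulated after transcription. RNA sequencing does not measure their protein levels. Nrf1 and Nrf2 are related transcription factors that bind antioxidant response elements with small Maf partners, and *Hmox1* and the ferritin genes are textbook targets of such elements.

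The authors' deposited tables give, for each pair of groups, the mean of normalized read counts in each group and no values per library. The differences below are therefore ratios of the authors' group means within a table, without an SD, a standard error or a test, and whether a ratio exceeds the spread between the samples of a group is not known from these values. A ratio above 1.5 in either direction, the fold of the study's methods, was used to sort genes, among genes whose mean reached 10 in one group or both. Library totals are not given. The lowest means recur at 3 steps per group, from 0.315 to 0.372 in LacZ samples of the table with Nrf1, and all 642 means of that group under double the lowest step equal one of them (tolerance 5e-06), as 1 read in 1 of 3 libraries would give. Read so, the libraries of a group differed in depth by at most 1.21-fold, and the lowest mean of the 10 genes, 55.2 for *Slc40a1* in LacZ samples, has a standard error of 4.38 from counting alone. The summed means ranged from 8894782 to 10407511 per group and table. Each pair was normalized separately, so that the same LacZ libraries had means 1.07 times as high in the table with Nrf2 as in the table with Nrf1, for each of the 10 genes. The mean of *Nfe2l2*, the Nrf2 gene, was 3475 with LacZ and 75066 with Nrf2, and reads of the transgene and of the rat gene cannot be told apart in it. *Nfe2l1*, which encodes Nrf1, was not analysed here. Of the 9 listed cardiomyocyte markers, the lowest mean in any group was that of *Tnni3*, 1819 in Nrf1 samples, whereas the means of the 7 listed red blood cell markers summed to 34.8 in LacZ samples, with the globin genes *Hbb* and *Hba2* at 0.372 and 0.315.

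In Nrf1 samples, 5 of the 10 genes were more than 1.5-fold higher than in LacZ samples (*Hfe2*, *Blvrb*, *Hmox1*, *Slc40a1* and *Fth1*) and 0 were more than 1.5-fold lower, against 11.9% and 18.1% of the 11453 genes of that table. In Nrf2 samples, 7 of the 10 were higher (the same 5 genes with *Fech* and *Tfrc*) and 0 were lower, against 9.78% and 10.9% of 11630 genes. The median log2 ratio of the 10 genes was 0.60 with Nrf1 and 1.11 with Nrf2, while the median over all genes was 0.00 in both tables. In the table that sets Nrf2 samples directly against Nrf1 samples, 4 of the 10 genes were more than 1.5-fold higher with Nrf2 (*Slc40a1*, *Fth1*, *Fech* and *Ftl1*) and 1 was lower (*Hfe2*), against 12.3% and 5.16% of 11514 genes. Relative to the median cardiomyocyte marker, a scaling chosen after seeing the data, this balance turned to 1 gene higher with Nrf2 (*Slc40a1*) and 3 lower (*Hfe2*, *Blvrb* and *Ireb2*), against 5.82% and 31.1% of all genes. The comparisons with LacZ share their LacZ samples and are not independent of each other. The 10 genes and the lists below were chosen with earlier results of these data known. The shares over all genes therefore describe the background and are not a test of the 10 genes or of the lists.

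**Figure D1:**
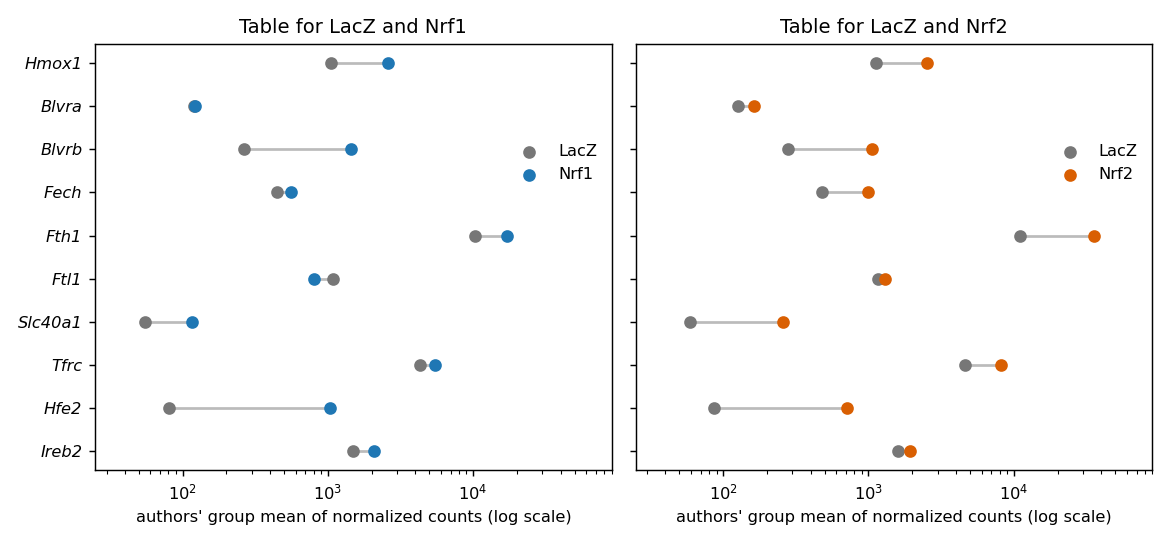
Authors' group means of normalized counts (log axis) of the 10 genes, in the table for LacZ and Nrf1 (left) and in the table for LacZ and Nrf2 (right), 1 point per group and gene. The Nrf1 points lie right of the LacZ points for 9 genes and left of them for *Ftl1*, and the Nrf2 points lie right of the LacZ points for all 10, while under other scalings *Blvra* with Nrf1 and *Ftl1* with Nrf2 change sides. Levels of different genes are not corrected for gene length.

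*Hmox1* encodes the inducible heme oxygenase. Its mean was 1053 in LacZ samples and 2582 in Nrf1 samples, a ratio of 2.45. In the other table it was 1124 in LacZ samples and 2543 in Nrf2 samples, a ratio of 2.26. Both factors thus went with more than double the *Hmox1* level of control cells, and in the direct table Nrf1 samples (mean 2881) were 1.09-fold higher than Nrf2 samples (mean 2643). *Hmox2*, which encodes the constitutive heme oxygenase, had ratios of 1.18 with Nrf1 and 1.21 with Nrf2, both under 1.5.

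The biliverdin reductases differed from each other. *Blvrb* encodes biliverdin reductase B, which also reduces flavins, and it had the second largest ratio of the 10 genes with Nrf1, from 263 in LacZ samples to 1448 in Nrf1 samples (ratio 5.50). With Nrf2 its mean was 1055 against 281 in LacZ samples (ratio 3.75), and in the direct table Nrf1 samples were 1.47-fold higher than Nrf2 samples, just under 1.5. *Blvra* encodes biliverdin reductase A, which acts on the biliverdin isomer that heme oxygenase makes. Its mean was 119 in LacZ samples and 122 in Nrf1 samples (ratio 1.02), and 127 in LacZ samples and 163 in Nrf2 samples (ratio 1.28). The ratio of *Blvrb* was 5.39 times that of *Blvra* with Nrf1 and 2.93 times with Nrf2. *Por*, which encodes the reductase that supplies heme oxygenase with electrons, had a ratio of 1.11 with Nrf2 and was 1.19-fold lower with Nrf1.

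Ferrochelatase, encoded by *Fech*, inserts iron into the ring in the last step of heme synthesis. *Fech* averaged 449 in LacZ samples and 561 in Nrf1 samples (ratio 1.248), but 480 in LacZ samples and 989 in Nrf2 samples (ratio 2.06). Nrf2 samples were also 1.64-fold higher than Nrf1 samples in the direct table. Other enzymes of the path had another order of the groups. *Alas1*, the rate-limiting first enzyme outside red blood cells, averaged 2112 in LacZ samples and 4823 in Nrf1 samples (ratio 2.28), and a ratio of 1.80 with Nrf2. *Urod*, the uroporphyrinogen decarboxylase gene, had a ratio of 1.90 with Nrf1 and of 1.15 with Nrf2, and Nrf1 samples were 1.66-fold higher in the direct table. *Alad*, *Uros*, *Cpox* and *Ppox* were chosen after their values were seen. *Alad* reached a ratio of 1.504 with Nrf1, just above the limit, and *Uros*, *Cpox* and *Ppox* stayed under 1.5 with both factors. Of 12 genes of heme synthesis and its mitochondrial transporters with a mean of at least 10, 5 were higher with Nrf1 and 4 with Nrf2, *Fech* among the latter, and 0 were lower. *Tmem14c*, a mitochondrial protein needed for porphyrin transport, was among those higher with both factors, with ratios of 2.04 and 1.67. Over all genes, 11.9% were higher and 18.1% lower with Nrf1, and 9.78% and 10.9% with Nrf2.

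**Figure D2:**
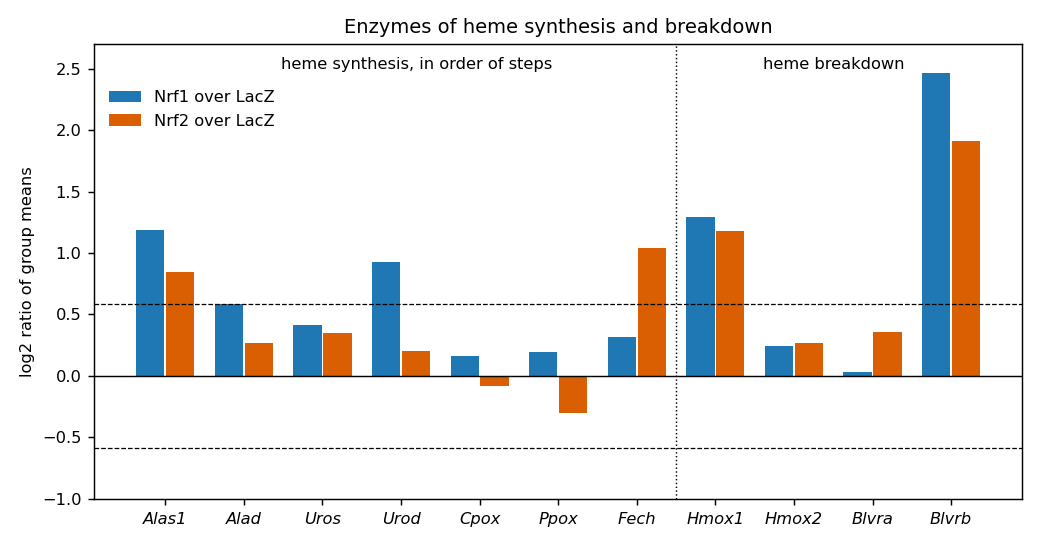
Log2 ratio of the authors' group means over LacZ for 7 enzymes of heme synthesis in the order of their steps and for 4 enzymes of heme breakdown, with Nrf1 in blue and Nrf2 in orange. Dashed lines mark a ratio of 1.5 in either direction. In synthesis, the Nrf1 bars of *Alas1*, *Alad* and *Urod* and the Nrf2 bars of *Alas1* and *Fech* cross the line, and in breakdown *Hmox1* and *Blvrb* cross it with both factors.

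The ferritin chains also moved unequally. *Fth1* encodes the heavy chain, which carries the ferroxidase activity of ferritin. Its mean was 10305 in LacZ samples and 17110 in Nrf1 samples (ratio 1.66). In Nrf2 samples it was 35859 against 11003 in LacZ samples (ratio 3.26), and Nrf2 samples were 1.95-fold higher than Nrf1 samples in the direct table. *Fth1* alone made up 0.116% of all normalized counts of LacZ samples, 0.185% of those of Nrf1 samples and 0.358% of those of Nrf2 samples. *Ftl1*, the light chain gene, averaged 1092 in LacZ samples and 808 in Nrf1 samples, 1.35-fold lower, and it was the only one of the 10 genes with a lower mean in Nrf1 than in LacZ samples as deposited. Under 3 other scalings the log2 ratio of *Blvra* was below 0 as well, from -0.05 to -0.02. With Nrf2 the mean of *Ftl1* was 1304 against 1166 in LacZ samples (ratio 1.12, or a log2 ratio of -0.05 relative to the cardiomyocyte markers), and its ratio of 1.503 in the direct table lay at the limit. The ratio of *Fth1* was 2.24 times that of *Ftl1* with Nrf1 and 2.91 times with Nrf2. Ferritin genes have processed copies in rodent genomes, and how reads that match several places were counted is not given in the sources used here, so the levels of both genes are uncertain. No symbol that starts with Fth or Ftl other than these 2 is listed. *Ncoa4*, the receptor that takes ferritin to the lysosome, was 1.12-fold lower with Nrf1 and had a ratio of 1.04 with Nrf2.

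*Slc40a1* encodes ferroportin, the iron exporter. Its mean was 55.2 in LacZ samples and 116 in Nrf1 samples (ratio 2.11), and 59.0 in LacZ samples and 257 in Nrf2 samples (ratio 4.37). Nrf2 samples were 2.06-fold higher than Nrf1 samples in the direct table. Ferroportin works with ferroxidases, and these genes did not follow one pattern. *Heph*, which encodes the membrane-bound ferroxidase hephaestin, averaged 138 in LacZ samples and 2066 in Nrf2 samples (ratio 14.9), but 130 in LacZ samples and 138 in Nrf1 samples (ratio 1.07). *Cp*, the ferroxidase ceruloplasmin of the blood, was 2.58-fold lower with Nrf1 and 1.63-fold lower with Nrf2.

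*Tfrc*, the gene of the transferrin receptor, averaged 4326 in LacZ samples and 5425 in Nrf1 samples (ratio 1.254), and 4620 in LacZ samples and 8159 in Nrf2 samples (ratio 1.77). In the direct table the ratio was 1.40. *Tfrc* and *Slc40a1*, one for import and one for export of iron, thus both had higher means in Nrf2 than in LacZ samples. Of the 12 genes of iron uptake with a mean of at least 10, *Tfrc* included, 1 was higher and 3 were lower with Nrf1, and 2 were higher and 1 was lower with Nrf2. With so few genes these counts are close to the shares over all genes, 11.9% and 18.1% with Nrf1 and 9.78% and 10.9% with Nrf2, and the median log2 ratio of the list was -0.03 with Nrf2. Of the lower genes with Nrf1, *Slc11a1* (2.78-fold) encodes an iron transporter of macrophages and *Tf* (2.08-fold) the iron carrier transferrin. The other, *Steap1* (1.96-fold), belongs to a ferrireductase gene family. *Slc11a2*, the divalent metal transporter that moves iron out of the endosome, had ratios of 1.08 with Nrf1 and 0.912 with Nrf2.

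*Hfe2* encodes hemojuvelin, a coreceptor for bone morphogenetic proteins that is made in skeletal muscle, heart and liver and is known for its role in hepcidin expression in the liver. It had the largest ratio of the 10 genes in both comparisons with LacZ. Its mean was 81.0 in LacZ samples and 1038 in Nrf1 samples (ratio 12.8), and only 7 genes of that table had a higher ratio. With Nrf2 its mean was 709 against 86.5 in LacZ samples (ratio 8.19), and 71 genes had a higher ratio. Nrf1 samples were 1.57-fold higher than Nrf2 samples in the direct table. The rest of the hepcidin and bone morphogenetic protein list did not show differences of this size: of the 15 genes with a mean of at least 10, *Hfe2* was the one past 1.5-fold with either factor. *Bmp6*, a ligand that signals iron load, had ratios of 1.00 with Nrf1 and 1.20 with Nrf2, and the means of *Hamp*, which encodes hepcidin, lay between 1.38 and 4.96 in all groups and tables, too low to be counted.

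*Ireb2* encodes iron regulatory protein 2, which is degraded when iron is plentiful. Its mean was 1486 in LacZ samples and 2069 in Nrf1 samples (ratio 1.39), and 1587 in LacZ samples and 1928 in Nrf2 samples (ratio 1.22). *Aco1*, which encodes iron regulatory protein 1, was 1.06-fold lower with Nrf1 and 1.24-fold lower with Nrf2. *Fbxl5*, the iron-sensing ubiquitin ligase subunit that marks iron regulatory protein 2 for degradation, had ratios of 1.11 and 1.01. None of these 3 genes passed 1.5-fold in any of the 3 tables.

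**Figure D3:**
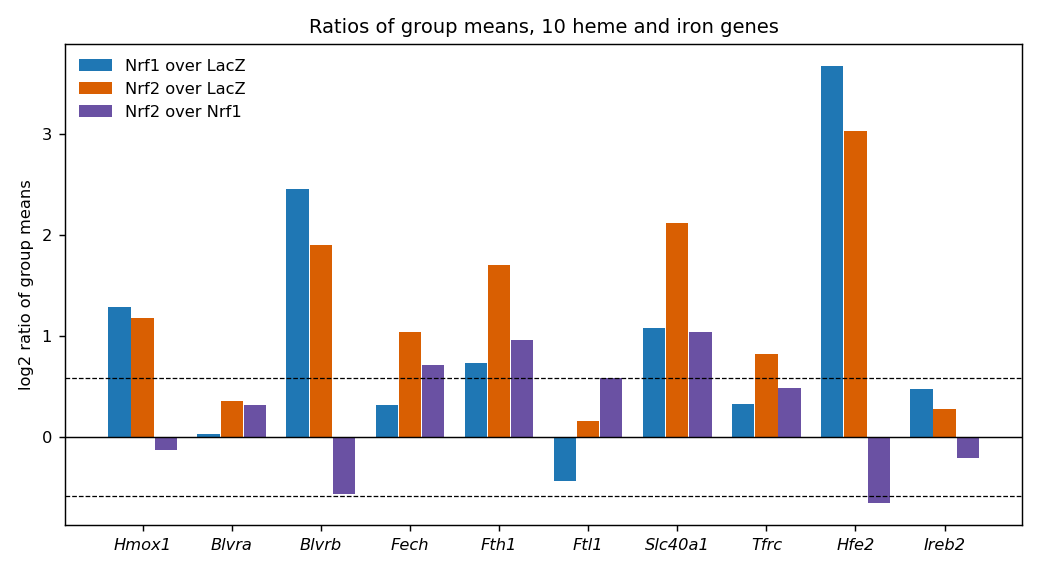
Log2 ratio of the authors' group means of the 10 genes for Nrf1 over LacZ (blue), Nrf2 over LacZ (orange) and Nrf2 over Nrf1 (purple), with dashed lines at a ratio of 1.5 in either direction. The purple bars of *Fth1*, *Slc40a1*, *Fech* and *Ftl1* reach above the upper line and that of *Hfe2* below the lower line, with *Ftl1* at the line itself.

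By the direct table, the 10 genes fell on both sides. The means of *Slc40a1*, *Fth1*, *Fech*, *Ftl1*, *Tfrc* and *Blvra* were higher in Nrf2 samples and those of *Hfe2*, *Blvrb*, *Ireb2* and *Hmox1* in Nrf1 samples, with ratios of Nrf2 over Nrf1 from 0.636 for *Hfe2* to 2.06 for *Slc40a1*. As deposited, the means of the heme oxygenase gene differed by 1.09-fold between the factors, while those of the ferritin heavy chain and ferroportin genes were 1.95-fold and 2.06-fold higher with Nrf2. Relative to the cardiomyocyte markers *Hmox1* was 1.46-fold higher with Nrf1, *Fth1* and *Slc40a1* were 1.46-fold and 1.54-fold higher with Nrf2, and *Blvra* was 1.07-fold higher with Nrf1. *Bach1*, which encodes a repressor of *Hmox1* and the ferritin genes that heme inactivates, was 1.09-fold lower with Nrf1 and had a ratio of 2.52 with Nrf2, from a mean of 126 to 317.

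**Figure D4:**
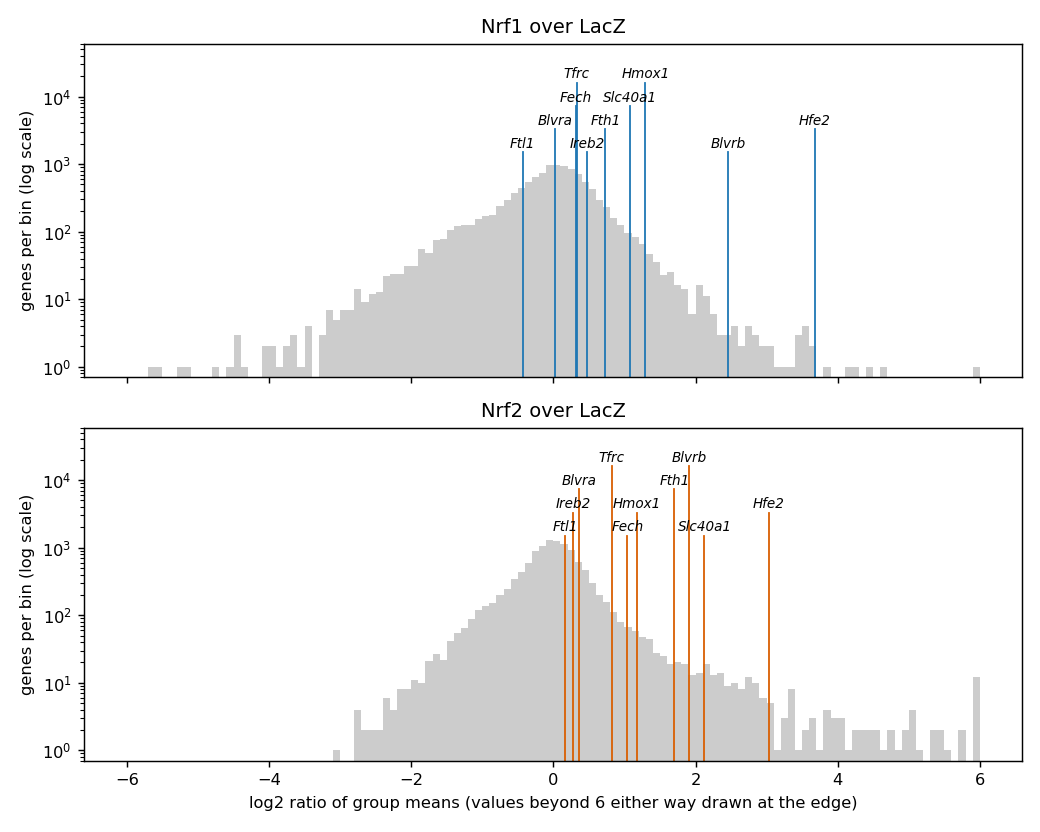
Number of genes per bin (log axis) by log2 ratio of the authors' group means, for all genes whose mean reached 10 in one group and was above 0 in both, with lines at the 10 named genes. In the upper panel (Nrf1 over LacZ) the lines run from *Ftl1* at -0.43 to *Hfe2* at 3.68, and in the lower panel (Nrf2 over LacZ) from *Ftl1* at 0.16 to *Hfe2* at 3.03.

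The place of each gene among all genes restates these ratios as percentiles. With Nrf1, *Hfe2*, *Blvrb*, *Hmox1*, *Slc40a1* and *Fth1* lay at percentiles 99.9, 99.7, 97.9, 96.5 and 92.1 of the log2 ratios, while *Blvra* lay at percentile 52.2 and *Ftl1* at 23.2. With Nrf2, *Hfe2*, *Slc40a1*, *Blvrb*, *Fth1*, *Hmox1*, *Fech* and *Tfrc* lay between percentiles 99.4 and 94.0, and *Blvra*, *Ireb2* and *Ftl1* at 82.1, 77.6 and 67.5.

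Most markers of other cells in the culture had lower means with both factors, and in bulk samples fewer cells of a type and less RNA per cell cannot be told apart. Macrophages handle much heme and iron, and 10 of the 11 macrophage markers with a mean of at least 10 were more than 1.5-fold lower with Nrf1 and also with Nrf2, with median log2 ratios of -1.48 and -1.18. The exception, *Csf1r*, had ratios of 1.35 and 1.06. The summed mean of the macrophage markers was 2044 in LacZ and 1052 in Nrf1 samples, and 2183 in LacZ and 1113 in Nrf2 samples. *Slc40a1*, *Hmox1* and *Blvrb*, which macrophages express as well, had higher means than in LacZ samples with both factors. *Slc11a1*, the iron transporter of macrophages named above, was 2.78-fold lower with Nrf1 and 1.38-fold lower with Nrf2. All 10 fibroblast markers were lower with Nrf1 and 7 with Nrf2 (median log2 ratios -1.82 and -0.94), and 4 of 6 endothelial markers were lower with each, while *Kdr* had a ratio of 1.11 with Nrf1 and *Tek* of 1.16 with Nrf2. Of the 9 cardiomyocyte markers, 4 were lower and 1 was higher with Nrf1 (median log2 ratio -0.34) and none passed 1.5-fold with Nrf2 (median 0.21). When the ratios were set relative to the median cardiomyocyte marker, 8 of the 10 genes were higher than in LacZ samples with Nrf1, with *Tfrc*, *Fech* and *Ireb2* added, while 30.1% of all genes then were. With Nrf2 the count remained 7 on that scale, against 6.35% of all genes. The part of the other cells in these ratios was not tested.

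**Figure D5:**
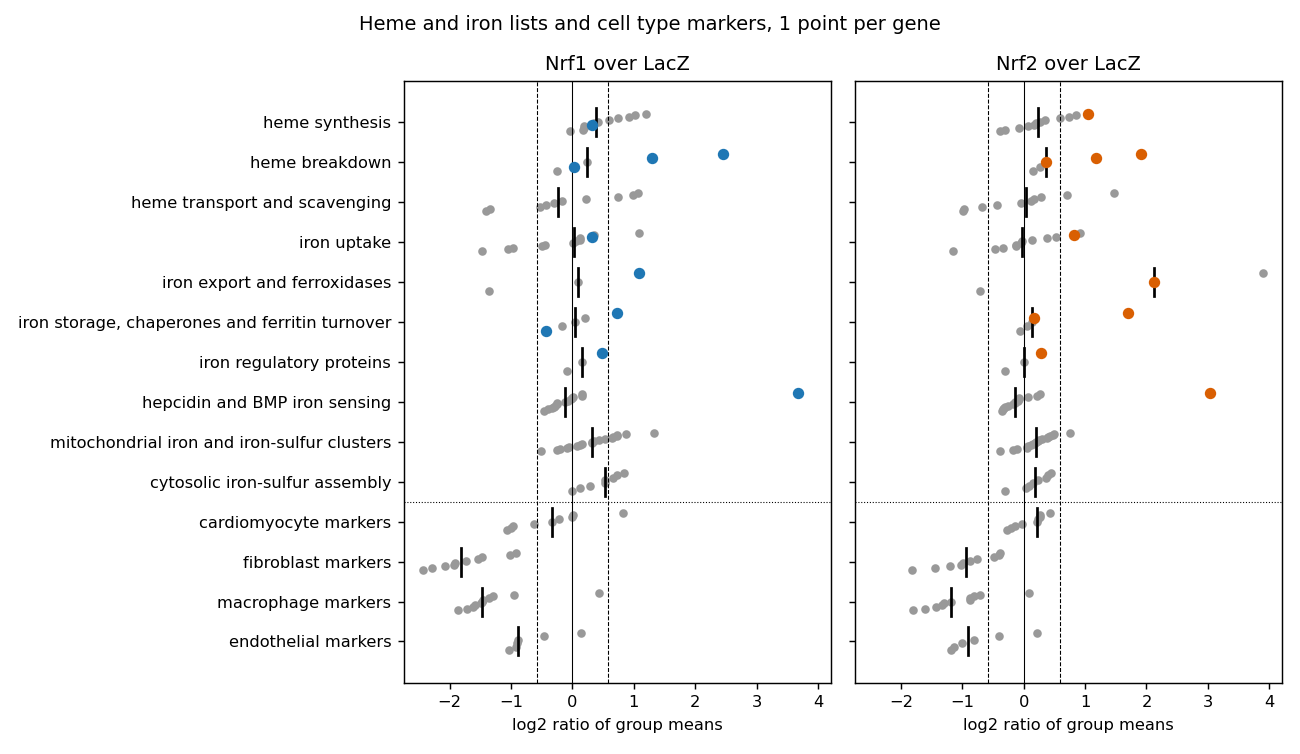
Log2 ratio of the authors' group means for each gene of 10 heme and iron lists and 4 marker lists whose mean reached 10 in one group or both, with Nrf1 over LacZ on the left and Nrf2 over LacZ on the right. Coloured points are the 10 named genes, grey points the other genes, black bars the medians, and dashed lines a ratio of 1.5. *Hfe2* stands alone in its list at 3.68 and 3.03, and the fibroblast and macrophage medians lie below -0.90 in both panels.

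Beyond the 10 genes, 82 other genes of heme and iron biology reached a mean of 10 in one group or both. With Nrf1, 18 of the 82 were higher and 6 were lower, or 21.95% and 7.32%, against 11.9% and 18.1% of all genes. With Nrf2 8 were higher and 5 were lower, or 9.76% and 6.10%, against 9.78% and 10.9%. In the direct comparison 7 of the 82 were higher and 7 were lower with Nrf2, 8.54% each, against 12.3% and 5.16%. Relative to the cardiomyocyte markers the direct counts were 2 higher and 36 lower, where 5.82% and 31.1% of all genes were.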

How the data were processed

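Stranded mRNA libraries of 9 samples, 3 per group, were sequenced. Per the paper's methods and the submitters' processing notes, reads were checked with FastQC 0.11.4, aligned to rat Rnor_6.0 with HISAT2 2.0.4, freed of duplicates with SAMtools 0.1.18 and counted with featureCounts 1.6.0. The labels name the organism as mouse, whereas the cells, the strain and the build are of rat. The signal in the authors' deposited tables is the mean, per group, of read counts divided by size factors, computed separately for each pair of groups. The remaining columns hold the authors' fold changes, p-values and adjusted p-values (edgeR 3.20.5 is named, while the layout is that of DESeq) and were not used.

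Ratios were taken within a table with pandas 2.3.3 and no pseudocount, over genes whose mean reached 10 in one group or both. A gene listed at 0 in one group was counted as past 1.5-fold and got no ratio. Genes were matched by symbol, and a few genes of these pathways are not reported here. Named genes were the 10 members, 8 regulators and partners set by name, and per list at most 4 others past 1.5-fold with the largest ratios. *Por*, *Bmp6*, *Hamp*, *Alad*, *Uros*, *Cpox*, *Ppox*, *Fdx1l*, *Slc25a37*, *Slc25a28* and single cell type markers were named after their values were seen. The members and lists were chosen with earlier results of these data known. Alternatives were other scalings, pseudocounts, filters and folds. Of the marker lists, red blood cell and hepatocyte markers had 2 or fewer genes with a mean of at least 10. The reference sequences at hand are of mouse, so no promoter was searched or printed.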

Additional observations from a re-analysis of the deposited data

How the results depend on the processing

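The tables hold group means, so leaving out single replicates was not run. No paired analysis was possible because the columns carry no replicate numbers. The promoter search was not run for lack of rat sequences. Under the planned scalings, pseudocounts and the quotient of the comparisons with LacZ, 158 of 160 ratios of the 10 genes kept their side of 1.5-fold. The exceptions were both *Ftl1* in Nrf2 over Nrf1, with a ratio of 1.493 after rescaling to equal sums and 1.498 with a pseudocount of 10. These scalings shifted all log2 ratios by at most 0.08, and 3 ratios changed sign, all of *Blvra* in Nrf1 over LacZ, from a log2 ratio of 0.03 to between -0.05 and -0.02. At 2-fold, 1 of the 10 genes was higher and 0 were lower in the direct table, against 5.86% and 1.23% of all genes. Of the 82 other genes, 5 were higher and 5 lower with Nrf1, against 4.23% and 9.80% of all genes. With Nrf2, 2 were higher and 1 was lower, against 4.68% and 4.27%. In the direct comparison, 2 were higher and 1 was lower, against 5.86% and 1.23%. At a lower limit, a log2 ratio of 0.32, 1 of the 10 genes was lower with Nrf1 and 2 in the direct table. Of all genes, 28.2% and 16.8% were lower. Of the 82 other genes, 28 were higher and 14 lower with Nrf1, against 24.6% and 28.2% of all genes. With Nrf2, 19 were higher and 12 lower, against 19.8% and 21.4%. In the direct comparison, 15 were higher and 16 lower, against 22.3% and 16.8%. With a mean of at least 100 required, 2 of the other genes were lower with Nrf1 and 2 with Nrf2, against 11.9% and 6.65% of all genes. On the scale of the cardiomyocyte markers, which shifted the log2 ratios of Nrf1 over LacZ by -0.34, of Nrf2 over LacZ by 0.21 and of Nrf2 over Nrf1 by 0.42, 22 of 30 ratios of the 10 genes kept their side and 2 changed sign, *Ftl1* in Nrf2 over LacZ (log2 ratio -0.05) and *Blvra* in Nrf2 over Nrf1 (-0.10). On it 8 of the 10 genes were higher with Nrf1, and 1 was higher and 3 were lower in the direct table, with *Fth1*, *Ftl1* and *Fech* no longer past 1.5-fold there. Of the other genes 30 were higher with Nrf1, 4 were higher and 9 lower with Nrf2, and 2 were higher and 36 lower in the direct table. Over all genes that scale gave 3445 higher and 1244 lower with Nrf1, against 1359 and 2073 as reported, 738 and 2186 with Nrf2, against 1137 and 1271, and 670 and 3578 in the direct table, against 1418 and 594. As shares of all genes, that scale gave 30.1% and 10.9% with Nrf1, 6.35% and 18.8% with Nrf2, and 5.82% and 31.1% in the direct table. Of 620 counts for the single lists, 528 stayed within 1.5 times their value. Counting error, at most 7.92% of a mean of the 10 genes, leaves out the spread between samples, which the group means do not give.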

Other observations

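Iron-sulfur clusters are the other large use of iron in the cell. Of the genes of mitochondrial iron import and iron-sulfur cluster assembly, 19 had a mean of at least 10. Of these, 6 were more than 1.5-fold higher with Nrf1 and 1 with Nrf2, and 0 were lower with either. Over all genes, 11.9% were higher and 18.1% lower with Nrf1, and 9.78% and 10.9% with Nrf2. The median log2 ratios of the list were 0.32 and 0.20. *Fdxr*, the reductase that passes electrons to mitochondrial ferredoxin, averaged 38.4 in LacZ samples and 96.6 in Nrf1 samples (ratio 2.51), and a ratio of 1.69 with Nrf2. Its partner *Fdx1* had ratios of 1.84 and 1.17, and the scaffold gene *Iscu* 1.65 and 1.31. Other genes of the list had lower means with Nrf1, though within 1.5-fold. The iron import genes *Slc25a37* and *Slc25a28* were 1.19-fold and 1.42-fold lower. With Nrf2, *Slc25a37* had a ratio of 1.14 and *Slc25a28* was 1.31-fold lower. *Fdx1l* was 1.16-fold lower with Nrf1, and its mean with Nrf2 was 191 against 181 in LacZ samples. In the cytosolic assembly pathway, 3 of 8 genes (*Fam96b*, *Ciao1* and *Ciapin1*) were higher with Nrf1, against 11.9% of all genes. Their ratios were 1.78, 1.66 and 1.58. With Nrf2, 0 of the 8 passed 1.5-fold, against 9.78% of all genes higher and 10.9% lower. For the cytosolic genes the median log2 ratios were 0.53 and 0.19. In the direct table all 8 cytosolic genes had lower means with Nrf2, with log2 ratios from -0.59 to -0.04. The median log2 ratio over all genes of that table was -0.005. Of the 8, 1 (*Ciao1*) was more than 1.5-fold lower, against 5.16% of all genes.

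Among 10 genes of heme transport and scavenging, 3 were higher and 2 were lower with Nrf1, against 11.9% and 18.1% of all genes. With Nrf2, 2 were higher and 3 were lower, against 9.78% and 10.9%. *Pgrmc1*, a membrane protein that binds heme, averaged 2188 in LacZ samples and 4340 in Nrf1 samples (ratio 1.98), and a ratio of 2.78 with Nrf2. *Hebp2*, named for its heme-binding family, had ratios of 2.09 and 1.22. *Lrp1*, the receptor for hemopexin-bound heme, was 2.65-fold lower with Nrf1 and 1.61-fold lower with Nrf2, and *Hpx*, the hemopexin gene, 2.54-fold and 1.97-fold lower at means under 25. *Steap4*, a ferrireductase gene, had a ratio of 2.13 with Nrf1, from a mean of 19.1 to 40.6, and of 0.971 with Nrf2.

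The level of *Fth1* bears on the removal of duplicate reads that the methods state. Where single-end reads that share a start and a strand are reduced to 1, a gene can keep about as many reads as its transcript has positions. The authors' means of *Fth1*, 10305 in LacZ samples and 35859 in Nrf2 samples, exceed the 1494 bases of the longest coding mouse *Fth1* transcript in GENCODE M21, and the rat length was not used. How duplicates were recognised is not given in the sources used here, and the effect of their removal on the ratios was not tested.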
